A study of Sus scrofa with 13 samples.

Results

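Pig blastocysts produced by in vitro fertilisation (IVF) were compared with blastocysts that had developed in vivo, before hatching, across all genes of a deposited expression table. The comparison uses 5 of the 13 libraries of the series, chosen by their labels: in vivo blastocyst libraries 1 and 2 and IVF blastocyst libraries 1, 2 and 3. The other libraries are hatched blastocysts of both origins (2 in vivo, 3 IVF), which served to estimate the spread and for 1 further comparison, and 3 of IVF embryos with 4 cells, used in 1 alternative only. Each library was made from polyadenylated RNA of embryos of Sus scrofa pooled within a group, extracted with TRIzol and read as pairs of 150 bases on an Illumina HiSeq. The study asked how stage and IVF culture bear on the embryo's transcripts. The labels name no treatment, transgene or mutation for either blastocyst group. The labels name preimplantation embryonic cells as the cell type, and the day of collection, pool size, breed, boars, donor sows, source of the eggs and culture medium are not given in the sources used here. Origin therefore cannot be told apart from embryo age, parents, egg source, culture or collection day, and nothing says that libraries of a group came from separate matings or IVF rounds. The p-values then reflect how far the deposited libraries of a group differ, which may be technical.

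A blastocyst has an outer epithelium, the trophectoderm, which pumps ions and water into a central cavity, and an inner cell mass that sets aside the epiblast, source of the fetus, and the hypoblast, source of the yolk sac lining. The surrounding zona pellucida is shed at hatching, and the pig trophectoderm later elongates and secretes estrogen, the signal by which the sow recognises pregnancy. Cells answer an overload of unfolded proteins in the endoplasmic reticulum (ER) by making more ER chaperones, and answer a shortage of amino acids and several other stresses through the integrated stress response, in which the transcription factor ATF4 switches on amino acid transporters and transfer RNA synthetases. Mitochondrial DNA encodes subunits of the respiratory chain, and the other subunits come from nuclear genes. In bulk RNA of a whole embryo, fewer cells of a type and less RNA per cell cannot be told apart.

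The 5 libraries held 36392910 to 39273867 counts, and 14221 (in vivo library 1) to 16455 genes (in vivo library 2) had a count. At this depth 3 counts equal 0.0759 to 0.0838 CPM (counts scaled to library size). Levels below are CPM after TMM normalisation. The log2 fold changes are IVF minus in vivo. The value after ± is an approximate standard error, the absolute log2 fold change divided by the square root of the F statistic of its test. Each in vivo group has n = 2 and each IVF group n = 3. The SD across genes of the log2 difference between 2 libraries was 0.659 for the in vivo pair, 0.507 to 0.597 for the IVF pairs and 0.756 to 1.03 for the pairs of different origin. The trophectoderm keratin KRT8 had 22014 and 18451 CPM in vivo and 28971, 26904 and 33044 after IVF. The pluripotency factor POU5F1 had 836 and 675 CPM in vivo and 1367, 1065 and 902 after IVF. How much of each library came from the inner cell mass was not measured.

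Of 15528 genes tested with edgeR's quasi-likelihood test, 945 were higher (6.09%) and 736 lower (4.74%) after IVF at an adjusted p under 0.05, together 10.8%, and 4255 had an unadjusted p under the same value. The calls higher after IVF were larger in size: 843 of them exceeded a 2-fold change and 188 an 8-fold change, against 577 and 48 of those that were lower. Their median log2 fold change was 1.72 and that of the lower calls -1.31, with 0.048 over all genes tested, of which 51.8% were above 0. The CPM ranges of the groups were apart for 1679 of the 1681 called genes and for 44.3% of all genes tested. In vivo library 1 decided many calls: without it 208 genes were higher and 112 lower, and 296 of the 1681 remained, while without in vivo library 2 the counts were 1055 and 702 and 1107 of the 1681 remained. Leaving out an IVF library gave 521 and 310 (library 1), 440 and 262 (library 2) or 683 and 511 (library 3), with 804, 678 and 1068 of the 1681 remaining. With the 4-cell libraries in the fit, 4 genes were higher and 3 lower, and of the 152 called genes that qualify to be named below, GPCPD1 alone was among them. From the 5 blastocyst libraries alone 630 and 513 genes were called, with 120 of those 152.

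**Figure D1:**
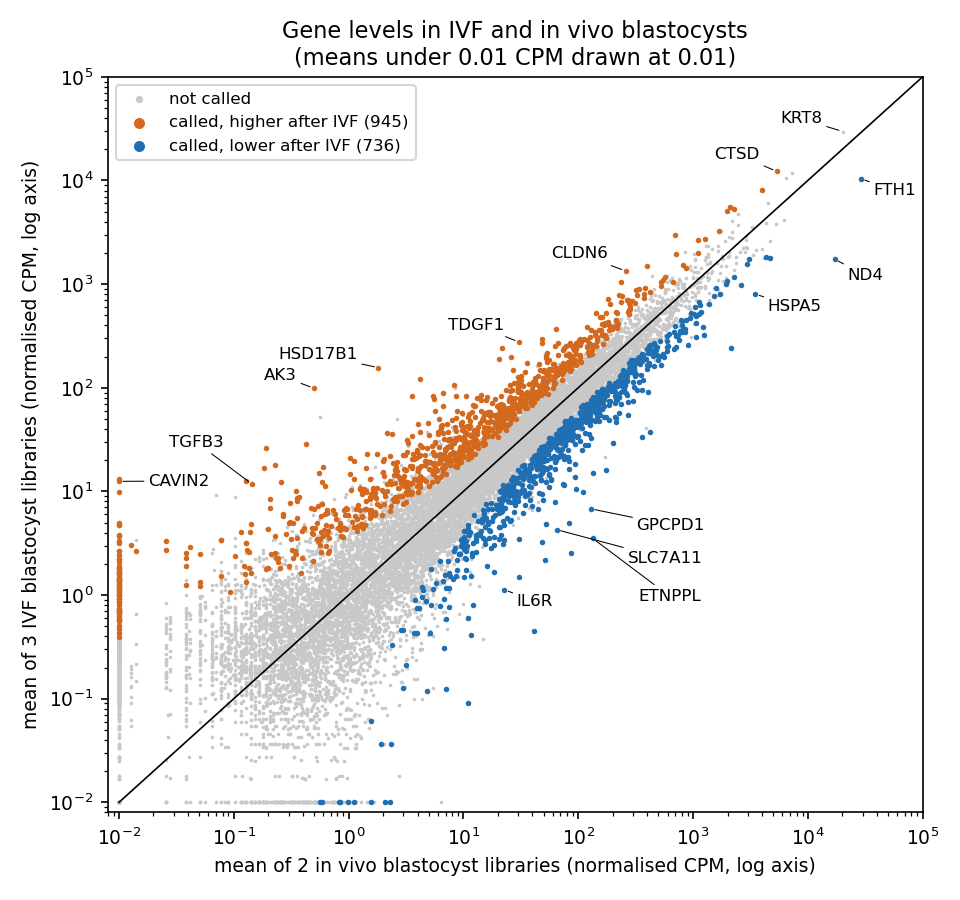
Mean level of every tested gene in the 2 in vivo (x axis) and the 3 IVF blastocyst libraries (y axis), normalised CPM on log axes. Orange points are the 945 genes called higher and blue points the 736 called lower after IVF, and the diagonal marks equal levels. FTH1, ND4 and HSPA5 lie below the diagonal among the abundant messages, and AK3, TGFB3 and HSD17B1 lie far above it.

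The calls fell unevenly over gene lists put together for the blastocyst. Members lower after IVF were most frequent among mitochondrial genome messages (7 of 13), ER chaperones (10 of 30) and genes of the integrated stress response (11 of 35), against 4.74% of all genes tested. Members higher after IVF were most frequent among genes of steroid synthesis (6 of 12), hatching proteases and their inhibitors (6 of 19), lysosomal proteins (9 of 29), metal transporters and binding proteins (4 of 13), mitotic genes (7 of 28) and keratins and desmosomes (4 of 16), against 6.09% of all. No member was called among 15 hypoxia response genes and 5 sperm markers. The share called in either direction was below the 10.8% of all genes in several lists described below: heat shock proteins (9.09%), cholesterol genes (8.33%), fatty acid genes (6.67%), junctions, inner cell mass and hypoblast genes (8.7% each), chromatin (9.09%) and replication genes (8.0%), nucleolar and other MYC-related genes (6.67%) and oocyte messages (6.67%). That share was above 10.8% in other lists, among them the TCA cycle (31.6%), splicing factors (24.2%), p53 targets (23.8%) and proteasome subunits (22.6%). The same held for antioxidant genes (21.4%), BMP, Nodal and TGF-beta genes (20%), WNT genes (18.2%) and cytosolic ribosomal proteins (17.1%). These lists were chosen with earlier results of these data known, and their counts describe them without a test of the list.

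**Figure D2:**
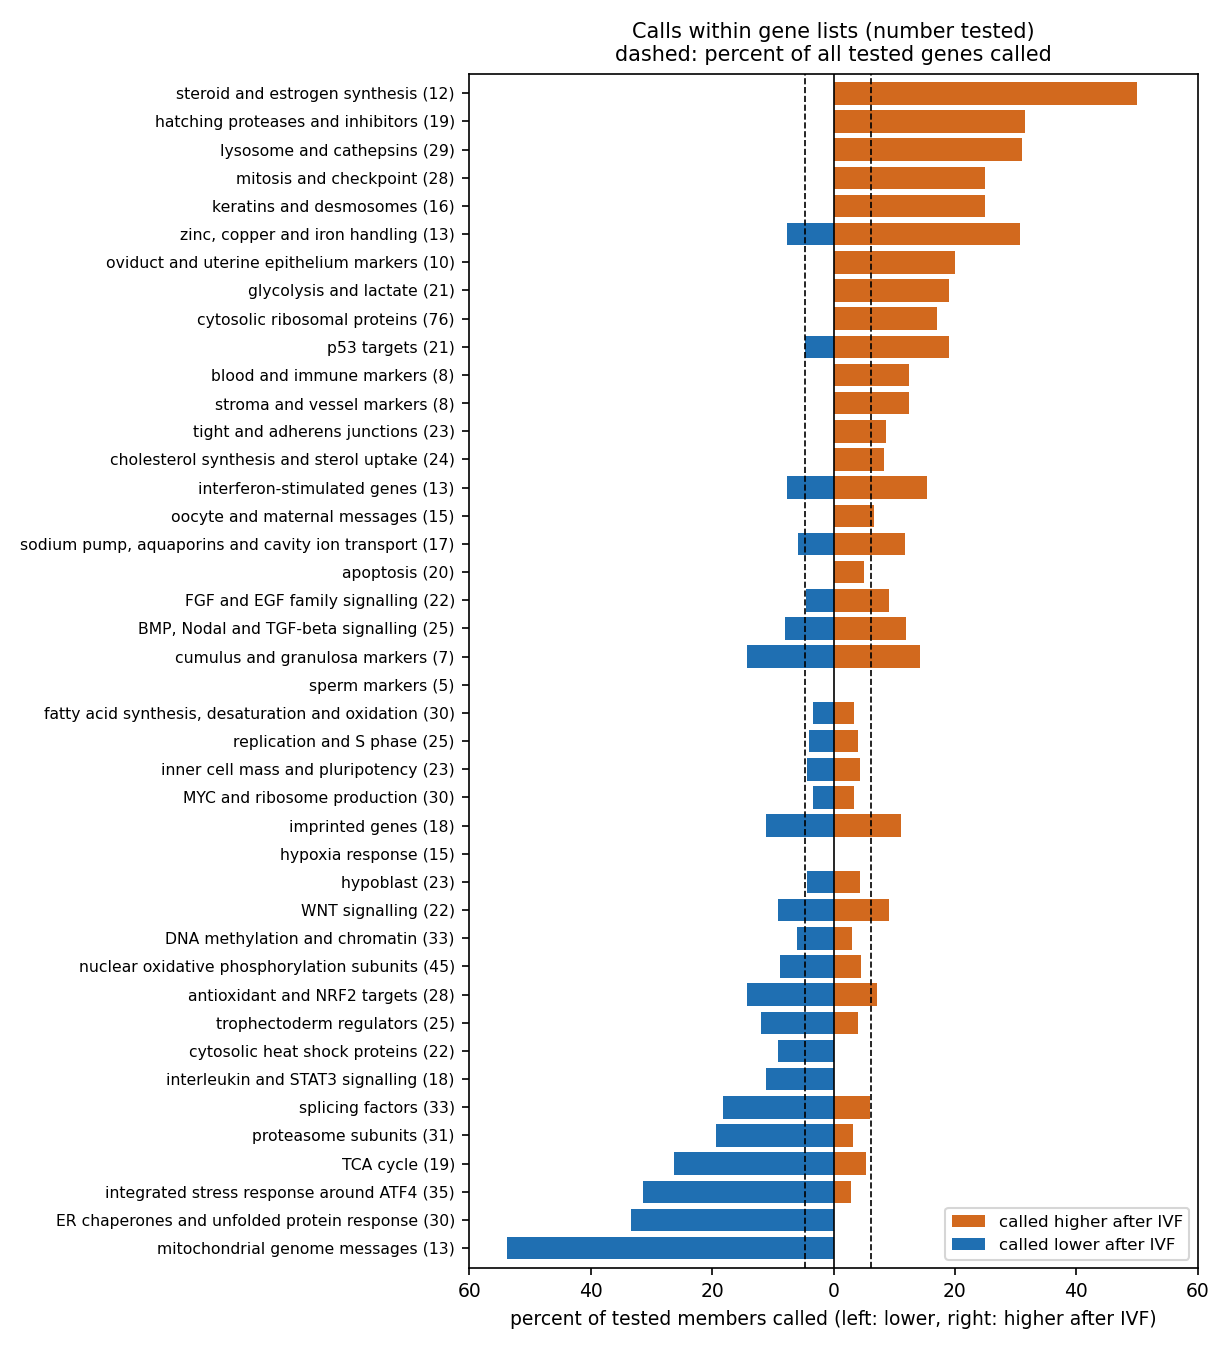
Percent of the tested members of each gene list that were called lower (blue, to the left) or higher (orange, to the right) after IVF, with the number tested in brackets. Dashed lines mark the 4.74% lower and 6.09% higher over all genes tested; mitochondrial genome messages reach furthest to the left and steroid synthesis furthest to the right.

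Of 30 ER chaperones and their helpers, all of them tested, 10 were lower after IVF and none higher, with 7 members above 0 and a median log2 fold change of -0.91 over the list, and the summed level was 13819 and 10409 CPM in vivo and 6371, 5547 and 6662 after IVF. CRELD2, an ER-resident protein induced when folding is overloaded, stood at 555 and 258 CPM in vivo and 96.7, 73.6 and 103 after IVF (log2 fold change -2.16 ± 0.3, adjusted p = 0.00381; chromosome 5, 709042 to 716766 on Sscrofa11.1). SDF2L1, a partner of the central ER chaperone BiP, had 285 and 142 CPM in vivo and 54.9, 43.6 and 40.6 after IVF (log2 fold change -2.2 ± 0.33, adjusted p = 0.00448; chromosome 14, 50249607 to 50251636). DNAJB11, a co-chaperone of BiP, had 414 and 191 CPM in vivo and 73.4, 70.1 and 80.1 after IVF (log2 fold change -2.02 ± 0.31, adjusted p = 0.00456; chromosome 13, 124387921 to 124409967). In all 3 genes both in vivo libraries lay above every IVF library, and in vivo library 1 was the higher of the pair. PDIA6, an isomerase that rearranges disulfide bonds, had 1497 and 996 CPM in vivo and 304, 278 and 378 after IVF (log2 fold change -1.96 ± 0.26, adjusted p = 0.00344; chromosome 3, 125752079 to 125774225).

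HSPA5, which encodes BiP itself, was the most abundant of these messages, at 4097 and 2886 CPM in vivo and 1019, 528 and 851 after IVF (log2 fold change -2.13 ± 0.36, adjusted p = 0.00674; chromosome 1, 265930044 to 265934959), a mean 4.37-fold above the IVF level. HSPA5 lost the call without in vivo library 1 (log2 fold change -1.84, adjusted p = 0.0531). The number of ER members called lower was 4 and 9 without in vivo library 1 and 2, and 9, 8 and 9 without IVF library 1, 2 and 3. XBP1, a transcription factor of the unfolded protein response, did not pass the test, at 260.2 and 402 CPM in vivo and 577, 407 and 407 after IVF (log2 fold change 0.48 ± 0.38, adjusted p = 0.451). The activity of the XBP1 protein was not measured. Of 22 cytosolic heat shock genes 2 were lower and none higher: BAG3, a co-chaperone that sends clients to autophagy, had 35.9 and 57.5 CPM in vivo and 18.6, 16.7 and 18.9 after IVF (log2 fold change -1.37 ± 0.25, adjusted p = 0.00935). DNAJB6 had 302 and 224 CPM in vivo and 141, 128 and 117 after IVF (log2 fold change -1.03 ± 0.22, adjusted p = 0.0156). DNAJB6 lost it without in vivo library 1 or IVF library 2 (log2 fold change -1.03 to -0.8, adjusted p = 0.0509 to 0.152).

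Of 35 genes of the integrated stress response 11 were lower, with a list median of -0.95, and 1 was higher, MTHFD2, an enzyme of mitochondrial folate metabolism named after its values were seen. SLC7A11, the cystine importer that supplies glutathione synthesis, had 59.9 and 69.8 CPM in vivo and 2.12, 1.79 and 8.92 after IVF (log2 fold change -3.92 ± 0.6, adjusted p = 0.00456; chromosome 8, 88608083 to 88690589). That is 15.2-fold less in the mean, and the highest IVF library was IVF library 3. SLC7A5, which carries large neutral amino acids, had 88.5 and 105 CPM in vivo and 31.9, 22.8 and 45.7 after IVF (log2 fold change -1.53 ± 0.28, adjusted p = 0.00898; chromosome 6, 1545940 to 1574298). The cysteinyl transfer RNA synthetase CARS had 291 and 380.2 CPM in vivo and 115, 98 and 130.4 after IVF (log2 fold change -1.55 ± 0.22, adjusted p = 0.00381). The tryptophanyl synthetase WARS had 479 and 514 CPM in vivo and 201, 142 and 212 after IVF (log2 fold change -1.42 ± 0.23, adjusted p = 0.00529). SLC7A1, a carrier of arginine and lysine, was near the floor after IVF, at 6.93 and 6.69 CPM in vivo and 0.354, 0.13 and 0.435 after IVF (log2 fold change -4.46 ± 0.98, adjusted p = 0.0175). SLC7A1 lost it without in vivo library 1 or IVF library 1 or 2 (log2 fold change -4.58 to -4.1, adjusted p = 0.052 to 0.0895).

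The messages of the transcription factors ATF4 and DDIT3 did not pass the test, and the activity of their proteins was not measured. ATF4 had 304 and 438 CPM in vivo and 414, 346 and 314 after IVF (log2 fold change -0.050 ± 0.31, adjusted p = 0.946), so its 2 origins overlapped. DDIT3, the factor CHOP, had 219 and 163 CPM in vivo and 213, 133 and 117 after IVF (log2 fold change -0.31 ± 0.5, adjusted p = 0.749), and it shares its locus with MARS, so reads of the pair may be mixed. The number of response members called lower was 7 and 9 without in vivo library 1 and 2, and 9, 7 and 10 without IVF library 1, 2 and 3, and MTHFD2 was not called with any 1 of the 5 blastocyst libraries left out. The share of counts in ribosomal protein messages was 1.09% and 1.53% in vivo and 1.61% to 1.76% after IVF, and its part in these results was not tested.

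**Figure D3:**
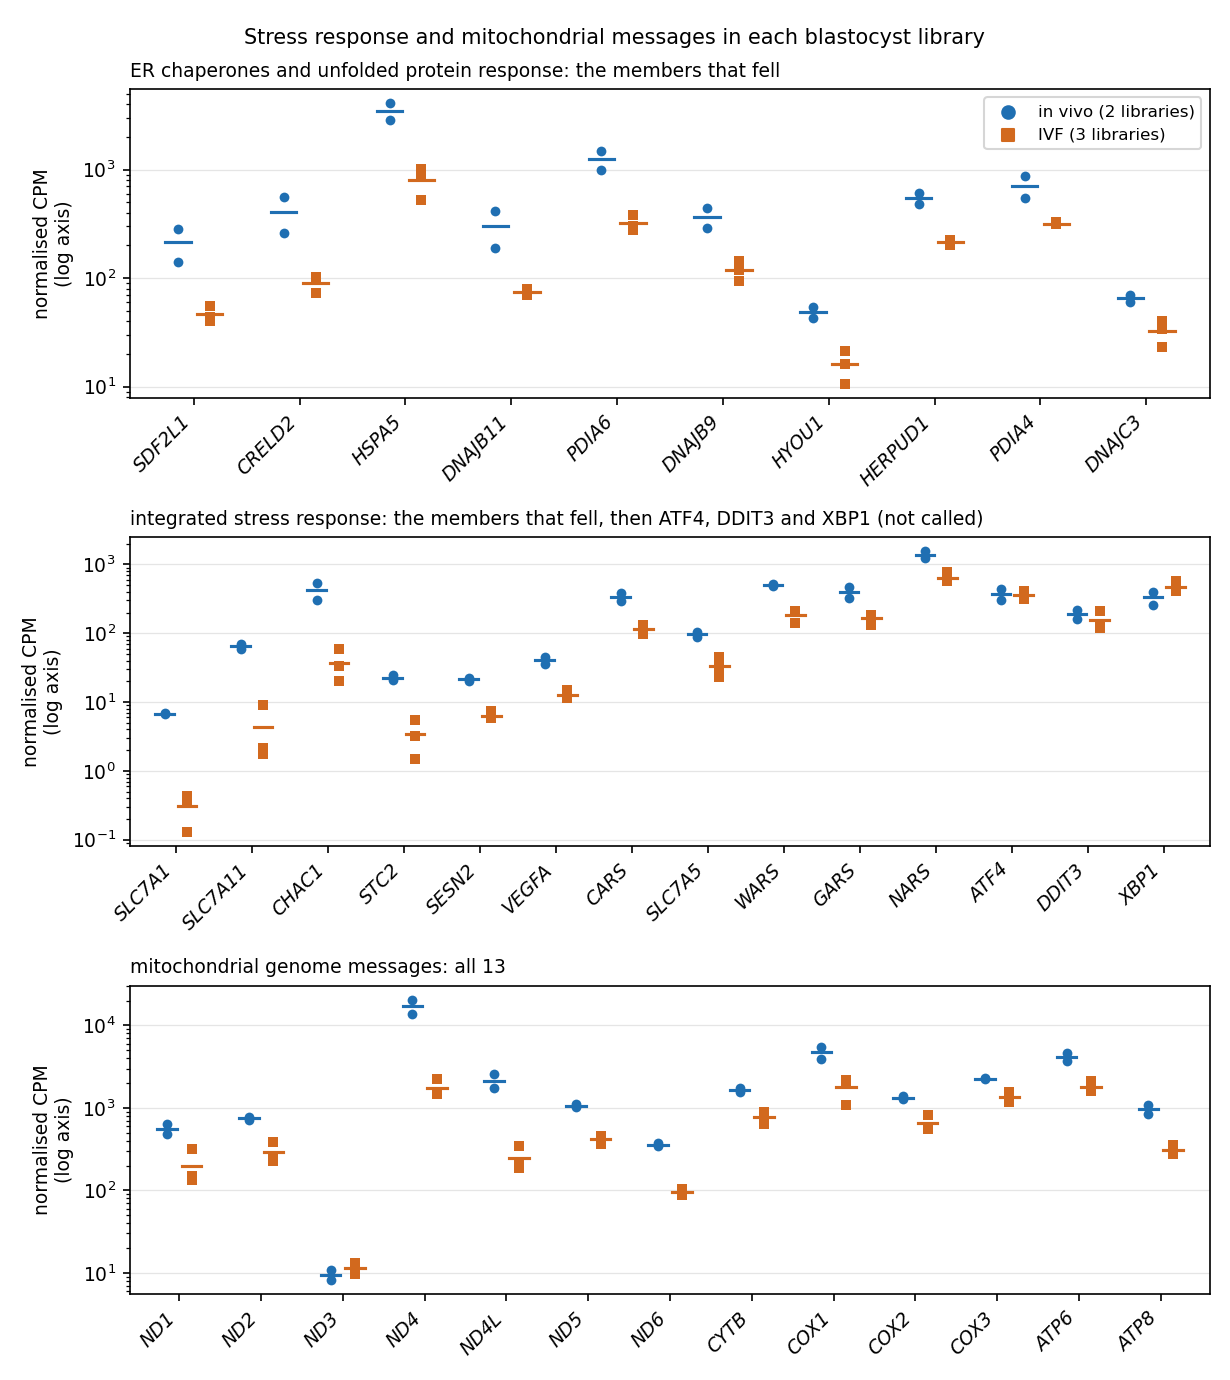
Normalised CPM (log axis) of ER chaperones (top), integrated stress response genes (middle) and all 13 mitochondrial genome messages (bottom) in each blastocyst library. Blue circles are the 2 in vivo and orange squares the 3 IVF libraries, with bars at the group means; the circles lie above the squares in every gene called, while ATF4, DDIT3, XBP1, ND3, CYTB, COX2, COX3, ATP6 and ATP8 were not called.

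Messages of the mitochondrial genome took 3.76% and 3.52% of the counts in vivo and 1.07%, 0.883% and 0.957% after IVF. Of the 13, 7 were lower, none was higher, and the list median was -1.36. ND4, a core subunit of respiratory complex I and rank 2 among all genes by length-scaled level (FPKM) in vivo, had 20398 and 13933 CPM in vivo and 2256, 1470.3 and 1495 after IVF (log2 fold change -3.3 ± 0.55, adjusted p = 0.00589; 9.86-fold in the means). Its neighbour ND4L had 2563 and 1727 CPM in vivo and 344, 189 and 201 after IVF (log2 fold change -3.13 ± 0.5, adjusted p = 0.00496). ND6 had 372 and 346 CPM in vivo and 105, 87.1 and 91.7 after IVF (log2 fold change -1.92 ± 0.32, adjusted p = 0.00576). ND5 had 1017 and 1102 CPM in vivo and 455, 364 and 445 after IVF (log2 fold change -1.33 ± 0.3, adjusted p = 0.0186). COX1, the catalytic subunit of complex IV, had 3953 and 5438 CPM in vivo and 2169, 2072 and 1092 after IVF (log2 fold change -1.4 ± 0.35, adjusted p = 0.0271). ND4 overlaps ND4L, and ND5 overlaps ND6, so reads may be shared within these pairs, and how oligo(dT) enrichment took up these messages was not measured. ND5 lost it without in vivo library 1 or IVF library 1 or 2 (log2 fold change -1.39 to -1.23, adjusted p = 0.0502 to 0.0778). COX1 lost it without in vivo library 1 or 2 or IVF library 2 or 3 (log2 fold change -1.6 to -1.14, adjusted p = 0.0587 to 0.1). The number called lower was 3 and 5 without in vivo library 1 and 2, and 6, 3 and 4 without IVF library 1, 2 and 3.

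The nuclear partners that were tested did not follow as a group. Of 57 listed oxidative phosphorylation subunits 45 were tested, and of these 4 were lower and 2 higher, with a median of -0.051. The share called was 13.3%, near the 10.8% of all genes tested. The 4 lower members belong to complexes I and II. Of complex III, UQCRC1, UQCRC2, UQCRFS1, UQCRH, UQCRQ and CYC1 had no match by symbol and were not tested. The same held for COX4I1, COX5A, COX6B1, COX7B and COX8A of complex IV, so these calls do not compare the complexes. SDHA, the flavoprotein of complex II, had 2338 and 2213 CPM in vivo and 1164, 1172 and 1189 after IVF (log2 fold change -0.95 ± 0.18, adjusted p = 0.0106). SDHB had 920.1 and 676 CPM in vivo and 409, 371 and 425 after IVF (log2 fold change -0.99 ± 0.22, adjusted p = 0.0173). ATP5B, the catalytic beta subunit of ATP synthase, went the other way at 4341 and 3717 CPM in vivo and 7913, 8114 and 8207 after IVF (log2 fold change 1.0 ± 0.26, adjusted p = 0.0321). SDHA lost the call without in vivo library 1 (log2 fold change -0.9, adjusted p = 0.0775). SDHB lost it without in vivo library 1 or IVF library 1 or 2 (log2 fold change -1.0 to -0.74, adjusted p = 0.0521 to 0.17). ATP5B lost it without in vivo library 1 or 2 or IVF library 1, 2 or 3 (log2 fold change 0.9 to 1.13, adjusted p = 0.0703 to 0.124). The number of nuclear subunits called lower was 0 and 5 without in vivo library 1 and 2, and 1, 1 and 2 without IVF library 1, 2 and 3.

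In the tricarboxylic acid cycle 5 of 19 enzymes were lower and 1 higher, with a median of -0.23. The mitochondrial NADP-dependent isocitrate dehydrogenase IDH2 had 117 and 127 CPM in vivo and 37.8, 33.1 and 13.5 after IVF (log2 fold change -2.12 ± 0.54, adjusted p = 0.0295), with IVF library 3 lowest. IDH3G, a subunit of the NAD-dependent enzyme, had 485 and 341 CPM in vivo and 165, 159.6 and 177 after IVF (log2 fold change -1.31 ± 0.24, adjusted p = 0.00907). DLD, the shared dihydrolipoamide dehydrogenase, had 2389 and 1542 CPM in vivo and 954, 1065 and 1218 after IVF (log2 fold change -0.87 ± 0.23, adjusted p = 0.0334). IDH3G overlaps SSR4 in the annotation, so its count may hold reads of that gene. IDH3G lost the call without in vivo library 1 (log2 fold change -1.02, adjusted p = 0.0934). DLD lost it without in vivo library 1 or IVF library 1, 2 or 3 (log2 fold change -0.96 to -0.51, adjusted p = 0.0524 to 0.334). IDH2 lost it without in vivo library 1 or 2 or IVF library 1, 2 or 3 (log2 fold change -2.39 to -1.78, adjusted p = 0.0539 to 0.108). The number called lower was 0 and 4 without in vivo library 1 and 2, and 1, 1 and 2 without IVF library 1, 2 and 3.

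Proteasome and splicing genes held further lower members. PSMD11, a lid subunit of the regulatory particle of the proteasome, had 1179 and 949 CPM in vivo and 303, 251 and 366 after IVF (log2 fold change -1.79 ± 0.22, adjusted p = 0.00319; chromosome 12, 42498711 to 42529853). Of 31 proteasome subunits 6 were lower, among them PSMD7 (-1.0 ± 0.19, adjusted p = 0.00992) and PSMC1 (-0.93 ± 0.19, adjusted p = 0.0139), and 1 was higher, PSMB3, named after its values were seen, which lost the call without in vivo library 1 or IVF library 1, 2 or 3. Among 33 splicing factors 6 were lower and 2 higher. SRSF11, a serine and arginine rich splicing factor, had 205 and 146 CPM in vivo and 48.8, 45.4 and 61.6 after IVF (log2 fold change -1.76 ± 0.28, adjusted p = 0.00477). HNRNPM had 1299 and 1031 CPM in vivo and 418, 495 and 689 after IVF (log2 fold change -1.12 ± 0.23, adjusted p = 0.0146). PSMD7 lost the call without in vivo library 1 (log2 fold change -0.82, adjusted p = 0.104). PSMC1 lost it without in vivo library 1 or IVF library 2 (log2 fold change -0.87 to -0.81, adjusted p = 0.0534 to 0.104). HNRNPM lost it without in vivo library 1 or IVF library 1 or 2 (log2 fold change -1.07 to -0.94, adjusted p = 0.052 to 0.119). The numbers called lower were, for the proteasome, 1 and 6 without in vivo library 1 and 2, and 3, 2 and 5 without IVF library 1, 2 and 3, and for splicing factors 1 and 4 without in vivo library 1 and 2, and 1, 2 and 5 without IVF library 1, 2 and 3.

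Of 29 lysosomal genes 9 were higher after IVF and none was lower, with a list median of 0.44. CTSH, a cathepsin that trims peptides from their amino end, had 45.2 and 50.8 CPM in vivo and 307, 368 and 209.7 after IVF (log2 fold change 2.62 ± 0.34, adjusted p = 0.00327; chromosome 7, 48084882 to 48106072), and the groups were far apart. CTSB, a cysteine cathepsin, had 124 and 162 CPM in vivo and 547, 672 and 374 after IVF (log2 fold change 1.89 ± 0.27, adjusted p = 0.00381; chromosome 14, 15014139 to 15035081). CTSD, the aspartic cathepsin, was among the most abundant messages of the IVF embryo at 5189.6 and 5578 CPM in vivo and 11004, 15484 and 10184 after IVF (log2 fold change 1.18 ± 0.32, adjusted p = 0.0364). LGMN, legumain, which activates cathepsins, had 2145 and 2019.5 CPM in vivo and 5156, 7313 and 4082 after IVF (log2 fold change 1.41 ± 0.26, adjusted p = 0.00981). The cystatin CST6, an inhibitor of such enzymes, was higher too, at 151 and 171 CPM in vivo and 466, 623 and 356 after IVF (log2 fold change 1.58 ± 0.34, adjusted p = 0.0162). LGMN lost the call without in vivo library 1 (log2 fold change 1.46, adjusted p = 0.066). CST6 lost it without in vivo library 1 or IVF library 2 (log2 fold change 1.35 to 1.5, adjusted p = 0.0516 to 0.116). CTSD lost it without in vivo library 1 or 2 or IVF library 1 or 2 (log2 fold change 0.98 to 1.25, adjusted p = 0.0683 to 0.19). The number of lysosomal members called higher was 4 and 4 without in vivo library 1 and 2, and 4, 4 and 10 without IVF library 1, 2 and 3.

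Annexins, which bind phospholipid membranes in the presence of calcium, included both ANXA1 and ANXA2 among the largest rises in CPM. ANXA1 had 584 and 807 CPM in vivo and 3359, 2982 and 2561 after IVF (log2 fold change 2.09 ± 0.31, adjusted p = 0.00448; chromosome 1, 226414200 to 226431963). ANXA2 had 2149.7 and 2395 CPM in vivo and 5436, 5515 and 4854 after IVF (log2 fold change 1.21 ± 0.21, adjusted p = 0.00692). ANXA2 lost the call without in vivo library 1 (log2 fold change 1.15, adjusted p = 0.0679). Further abundant messages higher after IVF were UPP1, uridine phosphorylase, at 2064 and 1901 CPM in vivo and 5091, 6238 and 3812 after IVF (log2 fold change 1.35 ± 0.38, adjusted p = 0.0417), and TUBA1B, an alpha tubulin, at 1045 and 1184 CPM in vivo and 2474, 2283 and 3169 after IVF (log2 fold change 1.24 ± 0.28, adjusted p = 0.0201). TUBA1B overlaps another annotated gene whose reads it may hold. TUBA1B lost it without in vivo library 1 or IVF library 3 (log2 fold change 1.1 to 1.17, adjusted p = 0.0548 to 0.141). UPP1 lost it without in vivo library 1 or 2 or IVF library 1 or 2 (log2 fold change 1.17 to 1.42, adjusted p = 0.0903 to 0.176).

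Of 16 listed genes of steroid and estrogen synthesis 12 were tested, and of these 6 were higher after IVF and none lower, with a median of 1.56. The others, CYP19A1, CYP19A2, HSD3B1 and HSD17B2, had too few counts to be tested. Their highest level in any of the 5 libraries was 0.778 CPM (CYP19A1 in IVF library 2). HSD17B1, which turns estrone into the more potent estradiol, had 2.26 and 1.38 CPM in vivo and 104, 258 and 108 after IVF (log2 fold change 6.42 ± 0.85, adjusted p = 0.00344; chromosome 12, 20269468 to 20271349), a ratio of the means of 85.8, with IVF library 2 highest. CYP11A1, which cleaves the side chain of cholesterol as the first step of the pathway, had 0 and 0.385 CPM in vivo and 3.85, 71.7 and 3.43 after IVF (log2 fold change 7.03 ± 1.74, adjusted p = 0.0274), so its group mean rests on IVF library 2. FDXR and FDX1 pass electrons to that enzyme; FDXR had 349.8 and 283 CPM in vivo and 874, 1007 and 747 after IVF (log2 fold change 1.47 ± 0.29, adjusted p = 0.011). FDX1 had 58.4 and 56.5 CPM in vivo and 154, 176 and 129.6 after IVF (log2 fold change 1.41 ± 0.3, adjusted p = 0.0162). STS, which frees steroids from their sulfates, had 35.2 and 98 CPM in vivo and 156, 296 and 174 after IVF (log2 fold change 1.65 ± 0.41, adjusted p = 0.0273). CYP11A1 and FDXR lost the call without in vivo library 1 (log2 fold changes 6.09 and 1.64, adjusted p = 0.164 and 0.0577). STS lost it without in vivo library 1 or IVF library 2 (log2 fold change 1.1 to 1.31, adjusted p = 0.0812 to 0.154). FDX1 lost it without in vivo library 1 or 2 or IVF library 2 (log2 fold change 1.3 to 1.45, adjusted p = 0.0509 to 0.101). The number called higher was 1 and 5 without in vivo library 1 and 2, and 5, 3 and 7 without IVF library 1, 2 and 3. CYP11A1 is also a granulosa cell gene: of 18 cumulus and granulosa markers, 7 were tested, 1 was higher and 1 lower, and their summed level was 171 and 237 CPM in vivo and 163, 247 and 182 after IVF. The lower member was VCAN, described under the other observations. The granulosa markers FSHR, FOXL2, NR5A1 and LHCGR had no count in any of the 5 libraries. Other markers too low to test did have counts: INHA 0.461 and AMH 0.128 CPM in in vivo library 2, and PTX3 0.835 CPM in IVF library 1.

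Calls were few among lipid genes. FADS1, the delta-5 desaturase that makes arachidonic acid, had 46.3 and 50.8 CPM in vivo and 296, 305 and 205 after IVF (log2 fold change 2.47 ± 0.27, adjusted p = 0.00174; chromosome 2, 9735425 to 9747405). ACADVL, which starts the oxidation of long-chain fatty acids in mitochondria, had 566 and 658 CPM in vivo and 366, 331 and 300.0 after IVF (log2 fold change -0.88 ± 0.19, adjusted p = 0.0164). These were the 2 calls among 30 fatty acid genes (6.67%), and the 2 calls among 24 genes of cholesterol synthesis and uptake (8.33%) were both higher. Both shares were below the 10.8% of all genes. The 2 higher genes were the sterol demethylase CYP51 at 43.9 and 60.7 CPM in vivo and 229, 151 and 208 after IVF (log2 fold change 1.9 ± 0.43, adjusted p = 0.0201) and the synthase HMGCS1 at 114 and 166 CPM in vivo and 226, 246 and 296 after IVF (log2 fold change 0.87 ± 0.24, adjusted p = 0.0415). CYP51 lost it without in vivo library 1 or IVF library 1 (log2 fold change 1.7 to 1.78, adjusted p = 0.0565 to 0.15). ACADVL lost it without in vivo library 1 or 2 or IVF library 2 or 3 (log2 fold change -0.98 to -0.77, adjusted p = 0.0524 to 0.067). HMGCS1 lost it without in vivo library 1 or IVF library 1, 2 or 3 (log2 fold change 0.63 to 0.95, adjusted p = 0.0693 to 0.295).

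Glycolysis held 4 higher members of 21, against 6.09% of all genes tested, and none lower, with a median of 0.64. Its share called in either direction was above the 10.8% of all genes tested. LDHA, the lactate dehydrogenase subunit that favours lactate formation, had 112 and 129 CPM in vivo and 417, 371 and 372 after IVF (log2 fold change 1.68 ± 0.26, adjusted p = 0.00456; chromosome 2, 40814163 to 40827284). HK1, a hexokinase that traps glucose in the cell, had 8.49 and 14.4 CPM in vivo and 34.9, 59.2 and 34.6 after IVF (log2 fold change 1.91 ± 0.38, adjusted p = 0.0124). The phosphofructokinase PFKL had 25.2 and 49.7 CPM in vivo and 76.7, 109 and 74.8 after IVF (log2 fold change 1.21 ± 0.34, adjusted p = 0.0442). HK1 lost the call without in vivo library 1 (log2 fold change 1.58, adjusted p = 0.107). PFKL lost it without in vivo library 1 or IVF library 1, 2 or 3 (log2 fold change 0.81 to 1.31, adjusted p = 0.0619 to 0.289). The number called higher was 1 and 4 without in vivo library 1 and 2, and 2, 2 and 2 without IVF library 1, 2 and 3, and the 15 hypoxia response genes had a median of -0.086 with no member called.

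Of 76 cytosolic ribosomal proteins 13 were higher after IVF and none lower, the median was 0.46, and in vivo library 1 had the lowest share of counts in them. RPS24 had 40.7 and 43.8 CPM in vivo and 136, 107 and 131 after IVF (log2 fold change 1.56 ± 0.22, adjusted p = 0.00381). RPL35A had 25.1 and 26.8 CPM in vivo and 73.1, 83.9 and 84.5 after IVF (log2 fold change 1.63 ± 0.3, adjusted p = 0.00918). RPL9 had 162 and 173 CPM in vivo and 395, 384 and 430.2 after IVF (log2 fold change 1.27 ± 0.28, adjusted p = 0.0174). RPL35A and RPL9 lost the call without in vivo library 1 (log2 fold changes 1.59 and 1.23, adjusted p = 0.0725 and 0.119). The number called higher was 1 and 8 without in vivo library 1 and 2, and 4, 5 and 4 without IVF library 1, 2 and 3. Ribosomal protein genes have many processed copies in the genome, so the split of reads between them is uncertain. NCL, the nucleolar protein nucleolin, had 14 and 16.3 CPM in vivo and 45.8, 48.6 and 75.5 after IVF (log2 fold change 1.91 ± 0.41, adjusted p = 0.0161), while NOP58, a nucleolar methylation factor, had 734 and 459 CPM in vivo and 322, 218 and 303 after IVF (log2 fold change -1.09 ± 0.27, adjusted p = 0.0279). NCL lost the call without in vivo library 1 (log2 fold change 1.81, adjusted p = 0.116). NOP58 lost it without in vivo library 1 or IVF library 1, 2 or 3 (log2 fold change -1.19 to -0.7, adjusted p = 0.0551 to 0.272).

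Among 28 mitotic and checkpoint genes 7 were higher and none lower. CDK1, the kinase that drives entry into mitosis, had 105 and 66.2 CPM in vivo and 339.5, 207 and 257 after IVF (log2 fold change 1.64 ± 0.27, adjusted p = 0.00578; chromosome 14, 64233945 to 64255290), and its lowest IVF library was still above both in vivo libraries. The centromere protein CENPF had 15.9 and 9.54 CPM in vivo and 30.9, 30.2 and 35.9 after IVF (log2 fold change 1.35 ± 0.32, adjusted p = 0.0225). The mitotic kinase PLK1 had 64.5 and 56 CPM in vivo and 117, 105 and 133 after IVF (log2 fold change 0.97 ± 0.24, adjusted p = 0.0276). CENPF lost it without in vivo library 2 or IVF library 1, 2 or 3 (log2 fold change 1.03 to 1.4, adjusted p = 0.0515 to 0.108). PLK1 lost it without in vivo library 1 or 2 or IVF library 1, 2 or 3 (log2 fold change 0.87 to 1.08, adjusted p = 0.0508 to 0.113). The number called higher was 2 and 1 without in vivo library 1 and 2, and 1, 1 and 2 without IVF library 1, 2 and 3. Replication genes gave 1 call in each direction among 25. Of 21 p53 targets 4 were higher and 1 lower, a share of 23.8% against 10.8% of all genes tested. CCNG1 had 1097 and 1451 CPM in vivo and 2906, 2735 and 2563 after IVF (log2 fold change 1.1 ± 0.2, adjusted p = 0.00907). AEN, a nuclease, had 75.8 and 104 CPM in vivo and 230.4, 278 and 213 after IVF (log2 fold change 1.42 ± 0.25, adjusted p = 0.00832). DDB2, a sensor of ultraviolet damage, had 13.9 and 7.2 CPM in vivo and 1.9, 1.76 and 2.96 after IVF (log2 fold change -2.25 ± 0.44, adjusted p = 0.0116). CCNG1, AEN and DDB2 lost the call without in vivo library 1 (log2 fold changes 0.92, 1.21 and -1.7, adjusted p = 0.0955, 0.0817 and 0.12).

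Ligands, receptors and targets of growth factor pathways differed singly. TDGF1 (Cripto), the co-receptor of Nodal on epiblast cells, had 29.8 and 31.1 CPM in vivo and 279, 381 and 170.1 after IVF (log2 fold change 3.18 ± 0.33, adjusted p = 0.00115; chromosome 13, 29537874 to 29544686), 9.07-fold in the means, and it was the 1 higher member of 23 inner cell mass genes. In that list 1 member was lower (KLF4, described below), 8 members were above 0 and the median was -0.45. BMP2, a ligand of the bone morphogenetic protein pathway, had 0.587 and 0.128 CPM in vivo and 5.24, 9.23 and 9.6 after IVF (log2 fold change 4.49 ± 0.74, adjusted p = 0.00566; chromosome 17, 15750487 to 15762982). ID3, a target of that pathway, had 7.43 and 7.25 CPM in vivo and 26.3, 41 and 26 after IVF (log2 fold change 2.08 ± 0.32, adjusted p = 0.00456). SMAD6, an inhibitor of the same pathway, was lower, at 3.13 and 1.64 CPM in vivo and 0.177, 0.492 and 0.326 after IVF (log2 fold change -2.83 ± 0.62, adjusted p = 0.0177). Over the 25 BMP, Nodal and TGF-beta genes 3 were higher and 2 lower, with a median of -0.33. TGFB3, a TGF-beta ligand, was almost without counts in vivo, at 0.0838 and 0.205 CPM in vivo and 11.08, 11.12 and 13.1 after IVF (log2 fold change 6.3 ± 0.61, adjusted p = 9.62e-04; chromosome 7, 99133873 to 99162239), and it overlaps IFT43, whose reads could enter its count. SMAD6 lost it without in vivo library 1 or IVF library 1 (log2 fold change -2.53 to -2.29, adjusted p = 0.0571 to 0.118).

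In the WNT pathway DKK3, a secreted member of the Dickkopf family, had 2.99 and 10.2 CPM in vivo and 86.4, 91 and 90.9 after IVF (log2 fold change 3.76 ± 0.61, adjusted p = 0.00516; chromosome 2, 47385244 to 47444664), and the 3 IVF libraries lay close together. The ligand WNT10B had no count in vivo and 1.47, 0.181 and 0.898 CPM after IVF, at least 10.6-fold higher against a floor of 3 counts in each library (adjusted p = 0.0183). LRP6, a WNT co-receptor, was lower at 18.3 and 24.8 CPM in vivo and 8.35, 9.56 and 7.53 after IVF (log2 fold change -1.35 ± 0.38, adjusted p = 0.044). EREG, a ligand of the epidermal growth factor receptor, had 8.18 and 7.13 CPM in vivo and 22.7, 43.9 and 30.4 after IVF (log2 fold change 2.08 ± 0.3, adjusted p = 0.00381; chromosome 8, 70351316 to 70372530). DUSP6, a phosphatase that limits ERK signalling, had 11 and 6.41 CPM in vivo and 32.3, 31.4 and 34.4 after IVF (log2 fold change 1.91 ± 0.5, adjusted p = 0.0339). IL6R, the interleukin 6 receptor, was lower at 36.3 and 9.15 CPM in vivo and 1.49, 0.752 and 1.14 after IVF (log2 fold change -4.33 ± 0.79, adjusted p = 0.00898). WNT10B lost the call without in vivo library 1 (adjusted p = 0.0966). IL6R lost the call without in vivo library 1 (log2 fold change -3.01, adjusted p = 0.0885). LRP6 lost it without in vivo library 1 or 2 or IVF library 1, 2 or 3 (log2 fold change -1.54 to -1.11, adjusted p = 0.0881 to 0.154). DUSP6 lost it without in vivo library 1 or 2 or IVF library 1, 2 or 3 (log2 fold change 1.58 to 2.36, adjusted p = 0.0677 to 0.137).

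**Figure D4:**
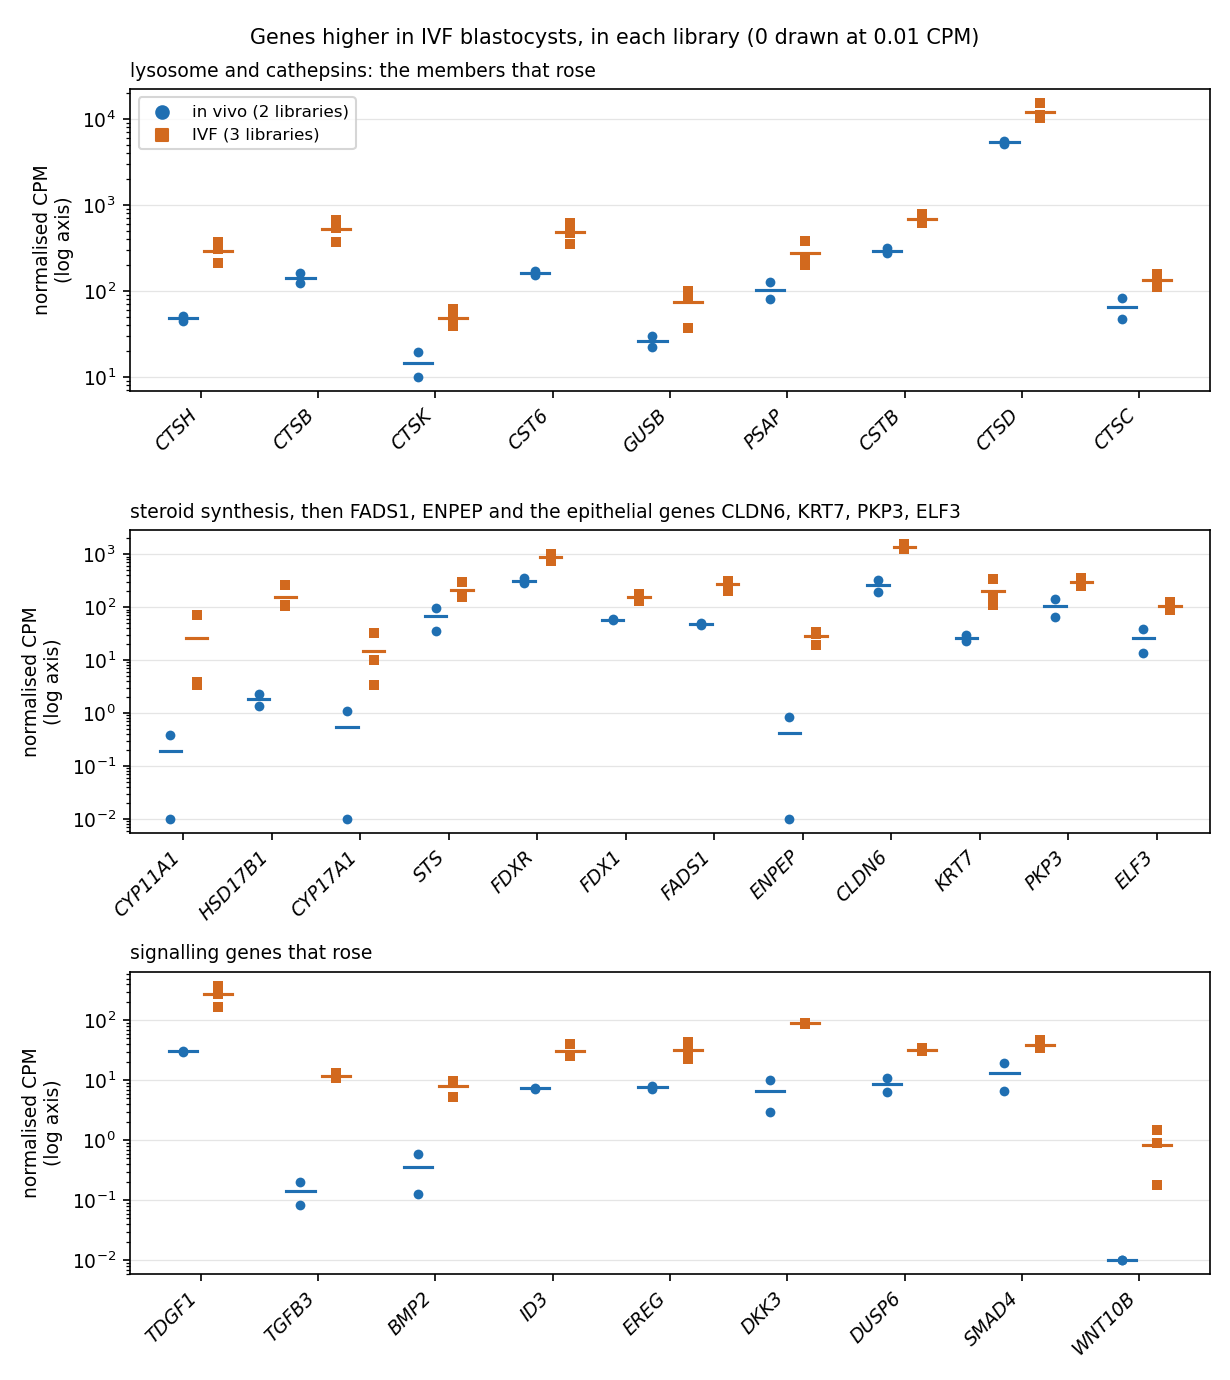
Normalised CPM (log axis, 0 drawn at 0.01) of lysosomal genes called higher (top), steroid and epithelial genes (middle) and signalling genes (bottom) in each blastocyst library. Blue circles are the 2 in vivo and orange squares the 3 IVF libraries, with bars at the group means; in each gene shown every square lies above every circle.

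The factors that define the lineages were mostly not called. POU5F1 differed by 0.56 ± 0.27 (adjusted p = 0.213), and the trophectoderm factor CDX2, at 12.1 and 13.9 CPM in vivo and 26.3, 26.7 and 12.2 after IVF, by 0.74 ± 0.42 (adjusted p = 0.276). GATA3, at 115 and 124 CPM in vivo and 47.2, 81.8 and 68 after IVF, gave -0.87 ± 0.31 (adjusted p = 0.0953), the trophectoderm factors TEAD4 -0.36 ± 0.24 (adjusted p = 0.363) and TFAP2C -0.44 ± 0.32 (adjusted p = 0.407). The hypoblast factors GATA6, which overlaps another annotated gene, and GATA4 gave 0.44 ± 0.3 (adjusted p = 0.377) and 0.73 ± 0.37 (adjusted p = 0.225). SOX2, the epiblast factor, had 0 to 2.58 CPM in the 5 libraries, too few counts for a narrow estimate (-0.32 ± 1.15, adjusted p = 0.9). The epithelial genes KRT8, KRT18 and CDH1 gave 0.55, 0.54 and 0.5 (adjusted p = 0.212, 0.16 and 0.374). An adjusted p above the threshold does not show that these levels are equal.

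Within the lineage lists a few other regulators passed. ELF3, an epithelial transcription factor, had 13.3 and 37.9 CPM in vivo and 87.4, 127 and 107 after IVF (log2 fold change 2.07 ± 0.45, adjusted p = 0.0176), and was the 1 higher of 25 trophectoderm regulators. The 3 lower were TFAP2A, MSX2 and ESRRB, so 16% were called against 10.8% of all genes tested. ESRRB lost the call with any 1 of the 5 blastocyst libraries left out (log2 fold change -1.29 to -0.78). TFAP2A had 27.8 and 20.1 CPM in vivo and 8.27, 10.5 and 8.92 after IVF (log2 fold change -1.38 ± 0.33, adjusted p = 0.0227). MSX2 had 361 and 472 CPM in vivo and 196, 267 and 183 after IVF (log2 fold change -0.95 ± 0.23, adjusted p = 0.0233). KLF4, at 22.4 and 22.7 CPM in vivo and 8.93, 2.51 and 2.86 after IVF (log2 fold change -2.24 ± 0.49, adjusted p = 0.0174), was the 1 lower inner cell mass gene. PDGFRA, a receptor of hypoblast cells, had 12.1 and 13.9 CPM in vivo and 2.48, 1.87 and 3.45 after IVF (log2 fold change -2.32 ± 0.66, adjusted p = 0.0446), and it was the 1 lower of 23 hypoblast genes. COL4A2, a basement membrane collagen, was the 1 higher, at 1.23 and 1.41 CPM in vivo and 4.91, 4.12 and 5.47 after IVF (log2 fold change 1.87 ± 0.46, adjusted p = 0.0261). The median of the hypoblast list was -0.13, and the lost calls of COL4A2 are given with the stages below. ELF3 lost it without in vivo library 1 or IVF library 2 (log2 fold change 1.51 to 1.93, adjusted p = 0.0519 to 0.109). KLF4 lost it without in vivo library 1 or IVF library 2 (log2 fold change -2.24 to -1.93, adjusted p = 0.0522 to 0.0797). TFAP2A lost it without in vivo library 1 or IVF library 1, 2 or 3 (log2 fold change -1.48 to -1.12, adjusted p = 0.0521 to 0.188). MSX2 lost it without in vivo library 1 or 2 or IVF library 1 or 3 (log2 fold change -1.13 to -0.75, adjusted p = 0.0628 to 0.112). PDGFRA lost it without in vivo library 1 or 2 or IVF library 1, 2 or 3 (log2 fold change -2.57 to -2.13, adjusted p = 0.0744 to 0.133).

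Among 18 imprinted genes 2 were higher and 2 lower, a share of 22.2% against 10.8% of all genes tested. ASCL2, a transcription factor of trophoblast progenitors, had 0.112 and 0.256 CPM in vivo and 9.26, 34.3 and 7.37 after IVF (log2 fold change 6.49 ± 0.98, adjusted p = 0.00448; chromosome 2, 1558459 to 1560112), with IVF library 2 highest. CDKN1C, a growth-limiting inhibitor of cyclin-dependent kinases, had 32.1 and 79 CPM in vivo and 13.9, 16.9 and 12.9 after IVF (log2 fold change -1.93 ± 0.43, adjusted p = 0.0182). GNAS, a G protein subunit, had 202 and 222 CPM in vivo and 108, 130.2 and 91.6 after IVF (log2 fold change -0.95 ± 0.26, adjusted p = 0.0379). Of 33 chromatin genes 1 was higher and 2 lower: the methylcytosine dioxygenase TET1 had 23.8 and 18.8 CPM in vivo and 77.7, 53.5 and 77.4 after IVF (log2 fold change 1.71 ± 0.36, adjusted p = 0.0151). The histone demethylase KDM6B had 27.1 and 25.1 CPM in vivo and 7.66, 3.16 and 5.2 after IVF (log2 fold change -2.29 ± 0.44, adjusted p = 0.0103). The DNA methyltransferase DNMT3B was not called, at 1.23 and 1.36 CPM in vivo and 2.93, 5.57 and 3.26 after IVF (log2 fold change 1.6 ± 0.57, adjusted p = 0.0973). KDM6B lost the call without in vivo library 1 (log2 fold change -2.22, adjusted p = 0.0609). TET1 lost it without in vivo library 1 or 2 (log2 fold change 1.55 to 1.9, adjusted p = 0.0598 to 0.0721). CDKN1C lost it without in vivo library 2 or IVF library 1 or 3 (log2 fold change -1.9 to -1.14, adjusted p = 0.0544 to 0.129). GNAS lost it without in vivo library 1 or 2 or IVF library 1, 2 or 3 (log2 fold change -1.08 to -0.83, adjusted p = 0.0582 to 0.132).

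Of the genes of the outer epithelium, a claudin, a keratin and a sodium channel subunit were among those called. CLDN6, a tight junction protein of early epithelia, had 191 and 328 CPM in vivo and 1244, 1541 and 1239 after IVF (log2 fold change 2.37 ± 0.34, adjusted p = 0.00381; chromosome 3, 39168506 to 39172631), 5.17-fold in the means. KRT7 had 29.7 and 22.8 CPM in vivo and 147, 335 and 110.5 after IVF (log2 fold change 2.91 ± 0.8, adjusted p = 0.0403), with IVF library 2 highest, and the desmosomal plakophilin PKP3 64.3 and 145 CPM in vivo and 277, 359.7 and 248 after IVF (log2 fold change 1.5 ± 0.33, adjusted p = 0.0179). SCNN1B, the beta subunit of the epithelial sodium channel, had 0.279 and 0 CPM in vivo and 2.58, 6.17 and 3.43 after IVF (log2 fold change 4.86 ± 0.97, adjusted p = 0.0122). AQP3, a water and glycerol channel of the trophectoderm, had 163 and 218 CPM in vivo and 327, 504 and 353 after IVF (log2 fold change 1.05 ± 0.28, adjusted p = 0.0337). PKP3 lost it without in vivo library 1 or IVF library 2 (log2 fold change 1.03 to 1.33, adjusted p = 0.057 to 0.117). KRT7 lost it without in vivo library 1 or 2 or IVF library 1 or 2 (log2 fold change 2.3 to 3.12, adjusted p = 0.0658 to 0.17). AQP3 lost it without in vivo library 1 or IVF library 1, 2 or 3 (log2 fold change 0.84 to 1.17, adjusted p = 0.0503 to 0.226). Tight and adherens junctions had 2 of 23 members higher and none lower (8.7% called, below the 10.8% of all genes), and cavity transport genes 2 of 17 higher and 1 lower (17.6%).

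Of 19 proteases of the kind linked to hatching and their inhibitors 6 were higher and none lower, with a median of 0.82. TMPRSS2, a membrane serine protease, had 16.7 and 36.9 CPM in vivo and 91, 236 and 119.6 after IVF (log2 fold change 2.48 ± 0.5, adjusted p = 0.0129). SPINT1, which inhibits such proteases, had 132 and 209 CPM in vivo and 361, 491 and 409 after IVF (log2 fold change 1.3 ± 0.24, adjusted p = 0.00889). TIMP3, an inhibitor of metalloproteases, had 138 and 167 CPM in vivo and 416, 269 and 409 after IVF (log2 fold change 1.26 ± 0.26, adjusted p = 0.0137). TMPRSS2, SPINT1 and TIMP3 lost the call without in vivo library 1 (log2 fold changes 2.02, 1.01 and 1.14, adjusted p = 0.104, 0.081 and 0.118). The number called higher was 0 and 5 without in vivo library 1 and 2, and 4, 3 and 5 without IVF library 1, 2 and 3. The labels place both groups at the blastocyst stage and hatched embryos in groups of their own.

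Of 13 interferon-stimulated genes tested, 2 were higher and 1 lower after IVF, a share of 23.1% against 10.8% of all genes tested. IFIT1, an antiviral protein that binds foreign RNA, had no count in vivo and 6.25, 2.18 and 1.14 CPM after IVF, at least 39.7-fold higher (adjusted p = 0.00671), and its locus overlaps LIPA. BST2, tetherin, had 2 counts in vivo and 320 after IVF, a ratio of 104 per unit of depth (95% counting interval 28.6 to 864; adjusted p = 0.0335). IRF9, a transcription factor of the response, was lower at 9.92 and 12.2 CPM in vivo and 4.76, 3.52 and 5.09 after IVF (log2 fold change -1.31 ± 0.38, adjusted p = 0.0489). These were the 3 calls among 13 tested. BST2 lost it without in vivo library 1 or IVF library 1 or 2 (adjusted p = 0.0587 to 0.172). IRF9 lost it without in vivo library 1 or 2 or IVF library 1, 2 or 3 (log2 fold change -1.44 to -1.15, adjusted p = 0.0813 to 0.148).

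Several of the largest folds belonged to genes outside the lists. AK3, a mitochondrial adenylate kinase that works with GTP, had 0 and 1.0 CPM in vivo and 64.9, 142 and 89.4 after IVF (log2 fold change 7.59 ± 0.99, adjusted p = 0.00327; chromosome 1, 217236561 to 217263144), and its locus overlaps CDC37L1. VNN2, a pantetheinase, had no count in vivo and 4.4, 19.2 and 5.85 CPM after IVF, at least 122-fold higher (adjusted p = 0.00408; chromosome 1, 30961520 to 30970945). CAVIN2, a coat protein of caveolae, likewise had none in vivo and 21.3, 3.32 and 12.9 CPM after IVF, at least 156-fold higher (adjusted p = 0.00671; chromosome 15, 96476675 to 96490231). ENPEP, aminopeptidase A, had 0 and 0.846 CPM in vivo and 31.2, 34.6 and 19.6 after IVF (log2 fold change 6.04 ± 0.99, adjusted p = 0.00566; chromosome 8, 111765839 to 111858349). In these 4 genes no in vivo library exceeded 1.0 CPM and no IVF library lay below 3.32 CPM.

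On the lower side GPCPD1, which cleaves glycerophosphocholine to release choline, had 148 and 109.9 CPM in vivo and 6.05, 3.58 and 10.8 after IVF (log2 fold change -4.24 ± 0.43, adjusted p = 0.00113; chromosome 17, 14420656 to 14476223), 18.9-fold less in the means. ETNPPL, a lyase of phosphoethanolamine, had 197 and 69.9 CPM in vivo and 6.8, 1.37 and 2.42 after IVF (log2 fold change -5.24 ± 0.87, adjusted p = 0.0059; chromosome 8, 113363047 to 113384783). NUCB2, the precursor of nesfatin, had 134 and 32.8 CPM in vivo and 2.48, 7.93 and 4.62 after IVF (log2 fold change -4.05 ± 0.57, adjusted p = 0.00381; chromosome 2, 41782594 to 41829829), and RUNX1T1, a transcriptional corepressor, 128 and 43.7 CPM in vivo and 2.93, 0.57 and 4.08 after IVF (log2 fold change -5.08 ± 0.8, adjusted p = 0.00462; chromosome 4, 44600292 to 44745954). In vivo library 1 exceeded library 2 in all 4, by over 2-fold in ETNPPL, NUCB2 and RUNX1T1, and both exceeded the IVF range. The 4 calls held with each blastocyst library left out.

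By length-scaled level (FPKM as deposited), FTH1, the heavy chain of the iron store ferritin, ranked 1 of all genes in vivo and 3 after IVF, at 32175 and 23558 FPKM in vivo and 11869, 8590.4 and 10485 after IVF. In normalised CPM it had 35405 and 22703 CPM in vivo and 11947, 8735 and 10514 after IVF (log2 fold change -1.48 ± 0.24, adjusted p = 0.00566; chromosome 2, 9535051 to 9537979). The ferritin light chain FTL, named after its values were seen, was not called, at 5704 and 7971 FPKM in vivo and 10809, 12651 and 9825 after IVF (adjusted p = 0.0779), and KRT8 ranked 1 after IVF, at 11704 and 11202 FPKM in vivo and 16839, 15478 and 19282 after IVF. Among iron, copper and zinc genes 4 of 13 were higher and 1 lower: the iron exporter SLC40A1 (ferroportin) had 21 and 34.7 CPM in vivo and 101, 144 and 88.2 after IVF (log2 fold change 2.0 ± 0.42, adjusted p = 0.0156). The copper importer SLC31A1 had 33 and 28.5 CPM in vivo and 69.1, 126 and 131 after IVF (log2 fold change 1.82 ± 0.33, adjusted p = 0.00819). The zinc and iron importer SLC39A14 was lower at 4.97 and 5.43 CPM in vivo and 0.708, 0.855 and 0.87 after IVF (log2 fold change -2.68 ± 0.58, adjusted p = 0.0163). FTH1, SLC40A1 and SLC31A1 lost the call without in vivo library 1 (log2 fold changes -1.12, 1.69 and 1.94, adjusted p = 0.0628, 0.124 and 0.0505). SLC39A14 lost it without in vivo library 1 or IVF library 1 or 2 (log2 fold change -2.73 to -2.59, adjusted p = 0.0521 to 0.0628).

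Antioxidant genes split, with 2 of 28 higher and 4 lower. TXN, thioredoxin, had 231 and 225 CPM in vivo and 688, 984 and 669 after IVF (log2 fold change 1.77 ± 0.36, adjusted p = 0.0127). GCLM, the modifier subunit of the enzyme that starts glutathione synthesis, had 74.7 and 136 CPM in vivo and 34.4, 39.7 and 51.2 after IVF (log2 fold change -1.33 ± 0.27, adjusted p = 0.0139). TALDO1 of the pentose phosphate pathway, which overlaps GATD1, had 1081 and 1201 CPM in vivo and 665, 579 and 623 after IVF (log2 fold change -0.87 ± 0.17, adjusted p = 0.0117). TXN and TALDO1 lost the call without in vivo library 1 (log2 fold changes 1.8 and -0.94, adjusted p = 0.0855 and 0.06). GCLM lost it without in vivo library 2 or IVF library 1 (log2 fold change -1.21 to -0.84, adjusted p = 0.0515 to 0.0911). Other abundant messages lower after IVF were RGN, regucalcin, at 5459 and 3222 CPM in vivo and 1938, 1772 and 1737 after IVF (log2 fold change -1.26 ± 0.3, adjusted p = 0.0229), and HMGB1, a chromatin protein, at 2417 and 1486 CPM in vivo and 1058, 792 and 1159 after IVF (log2 fold change -0.96 ± 0.24, adjusted p = 0.0301). HMGB1 lost it without in vivo library 1 or IVF library 1 or 2 (log2 fold change -1.0 to -0.56, adjusted p = 0.0735 to 0.32). RGN lost it without in vivo library 1 or IVF library 1, 2 or 3 (log2 fold change -1.31 to -0.82, adjusted p = 0.0597 to 0.232).

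Markers of maternal and other cells were mostly low, and some sums were higher after IVF. Their part in the differences above was not tested. Markers given below as 0 are examples, and other members too low to test did have counts. The highest such levels were 0.708 CPM for the stroma marker COL1A2 and 0.658 for the sperm marker ZPBP, both in IVF library 1. They were 0.462 for the blood marker ALAS2 (IVF library 3) and 1.31 for the oocyte message CPEB1 (in vivo library 1). The 11 oviduct and uterine markers in the table summed to 17.7 and 15.4 CPM in vivo and 48.7, 31.8 and 32.5 after IVF, with UPK1B, a uroplakin, at 0.838 and 0.231 CPM in vivo and 6.78, 3.58 and 4.38 after IVF (log2 fold change 3.2 ± 0.63, adjusted p = 0.0117), and FUT8, a fucosyltransferase found in many tissues, at 11.5 and 9.33 CPM in vivo and 31.2, 23 and 20.3 after IVF (log2 fold change 1.25 ± 0.31, adjusted p = 0.0271); the oviduct secretory gene OVGP1 had no count in vivo and a mean of 0.126 CPM after IVF. The stroma and vessel markers summed to 28.6 and 49.5 CPM in vivo and 76.1, 24.8 and 97.7 after IVF, with VIM, an intermediate filament of mesenchyme, higher at 0.168 and 0.256 CPM in vivo and 2.48, 0.441 and 4.62 after IVF (log2 fold change 3.54 ± 0.89, adjusted p = 0.0285) and COL3A1, LUM and KDR at 0 in all 5 libraries. Blood and immune markers summed to 10.8 and 9.43 CPM in vivo and 29.4, 21 and 29 after IVF, with NCF1, a subunit of the phagocyte oxidase, higher at 2.21 and 1.9 CPM in vivo and 17.4, 8.97 and 16 after IVF (log2 fold change 2.78 ± 0.59, adjusted p = 0.0155) and PTPRC and CD163 at 0 in all 5. The sperm markers summed to 136 and 146 CPM in vivo and 102, 114 and 119.7 after IVF, most of it ODF2, which other cells use in the centriole. ODF2 was not called (adjusted p = 0.389; group means 133 CPM in vivo, 103 after IVF). PRM2, TNP1 and ODF1 were at 0 in all 5. Oocyte messages summed to 46.1 and 52.1 CPM in vivo and 23.9, 13.1 and 21.8 after IVF, and OOEP, FIGLA and NOBOX were at 0 in all 5. Most of the in vivo sum was DAZL, named after its values were seen and not called (adjusted p = 0.058; group means 39.1 CPM in vivo, 7.22 after IVF). The 1 call among the 15 oocyte messages tested went the other way. ZAR1L, a relative of the zygote arrest gene ZAR1, had no count in vivo and 1.42, 0.544 and 0.163 CPM after IVF, at least 8.81-fold higher (adjusted p = 0.0445). ZAR1L lost it without in vivo library 1 or 2 or IVF library 1 or 2 (adjusted p = 0.0814 to 0.189). NCF1 lost it without in vivo library 1 or 2 (log2 fold change 2.68 to 2.9, adjusted p = 0.0536 to 0.0917). FUT8 lost it without in vivo library 1 or 2 or IVF library 1 or 2 (log2 fold change 1.06 to 1.42, adjusted p = 0.0578 to 0.108). VIM lost it without in vivo library 1 or 2 or IVF library 1 or 3 (log2 fold change 2.77 to 3.88, adjusted p = 0.0591 to 0.173).

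By chromosome, the X had 16 of 563 genes higher (2.84%) and 35 lower (6.22%), the reverse of the balance over all genes. Lower calls also outnumbered higher ones on chromosome 16 (19 and 11), chromosome 17 (31 and 29) and chromosome 10 (21 and 19). Long noncoding RNAs gave 41 higher and 16 lower of 1339. By the length that counts and FPKM imply, the longest of 5 classes of genes (over 5534 bases) had a median log2 fold change of -0.165 with 3.87% higher and 5.03% lower, and the other classes had medians of 0.031 to 0.118. In the highest of 5 level classes 13 genes were higher and 16 lower of 128, and in the lowest 65 and 9 of 4118. The part of transcript length in these results was not tested.

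Whether the origin difference was the same after hatching was tested as the difference of the 2 origin effects in the same fit, with 3 IVF and 2 in vivo hatched libraries. It was called for 732 genes (4.71%), among them 326 of the 1681 called here, and the origin effect itself was called for 1839 genes (11.8%) in hatched embryos. Of the 945 genes higher before hatching 257 were higher and 21 lower in hatched IVF embryos, and of the 736 lower 115 were lower and 29 higher. Of 170 genes that qualify to be named, 47 had a called difference, and 22 of them kept it with each of the 10 libraries left out in turn. Most of the 170 were picked by their call in blastocysts, 1 of the 2 effects compared. The 47 of 170 therefore cannot be set against the 4.71%. The count over all genes fell without in vivo library 1 or in vivo hatched library 2. It rose without in vivo library 2 or the in vivo hatched library that has no number. Without single IVF libraries it was 333 to 453.

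SLC7A11 and SLC7A5 reversed: their log2 fold changes were -3.92 and -1.53 before hatching and 3.06 and 1.53 after it (difference -6.98 ± 0.93, adjusted p = 0.00401, and -3.06 ± 0.42, adjusted p = 0.00453). FTH1 went from -1.48 to 1.3 (difference -2.78 ± 0.36, adjusted p = 0.00343), RGN from -1.26 to 1.16 (-2.41 ± 0.43, adjusted p = 0.014) and MSX2 from -0.95 to 1.17 (-2.12 ± 0.33, adjusted p = 0.00781). BMP2 went the other way, from 4.49 to -3.63 (8.11 ± 0.97, adjusted p = 0.00225). COL4A2, a basement membrane collagen of the hypoblast that overlaps COL4A1, went from 1.87 to -4.12 (5.99 ± 0.65, adjusted p = 0.00153). TGFB3 was at 6.3 before and -0.28 after hatching (6.58 ± 0.71, adjusted p = 0.00153), ASCL2 at 6.49 and -1.51 (8.0 ± 1.15, adjusted p = 0.00587), and HSD17B1 at 6.42 and 1.64 (4.78 ± 0.94, adjusted p = 0.0189). FADS1 was at 2.47 and 0.4 (2.07 ± 0.35, adjusted p = 0.0108). RGN lost it without in vivo library 1 or IVF library 1, 2 or 3 (log2 fold change -1.31 to -0.82, adjusted p = 0.0597 to 0.232). MSX2 lost it without in vivo library 1 or 2 or IVF library 1 or 3 (log2 fold change -1.13 to -0.75, adjusted p = 0.0628 to 0.112). COL4A2 lost it without in vivo library 1 or 2 or IVF library 1 or 3 (log2 fold change 1.78 to 1.97, adjusted p = 0.0571 to 0.154). These lost calls are those of the effect before hatching, which FTH1 lost without in vivo library 1 (log2 fold change -1.12, adjusted p = 0.0628).

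For other genes the difference between stages was not called. ND4 was at -3.3 and -3.04 (difference -0.26 ± 0.76, adjusted p = 0.897), HSPA5 at -2.13 and -1.88 (-0.25 ± 0.52, adjusted p = 0.841) and GPCPD1 at -4.24 and -3.32 (-0.92 ± 0.58, adjusted p = 0.376). TDGF1 was at 3.18 and 2.19 (0.99 ± 0.41, adjusted p = 0.184), and DKK3 at 3.76 and 3.78 (-0.023 ± 0.7, adjusted p = 1.0). A difference that misses the threshold does not show that the 2 effects are equal.

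**Figure D5:**
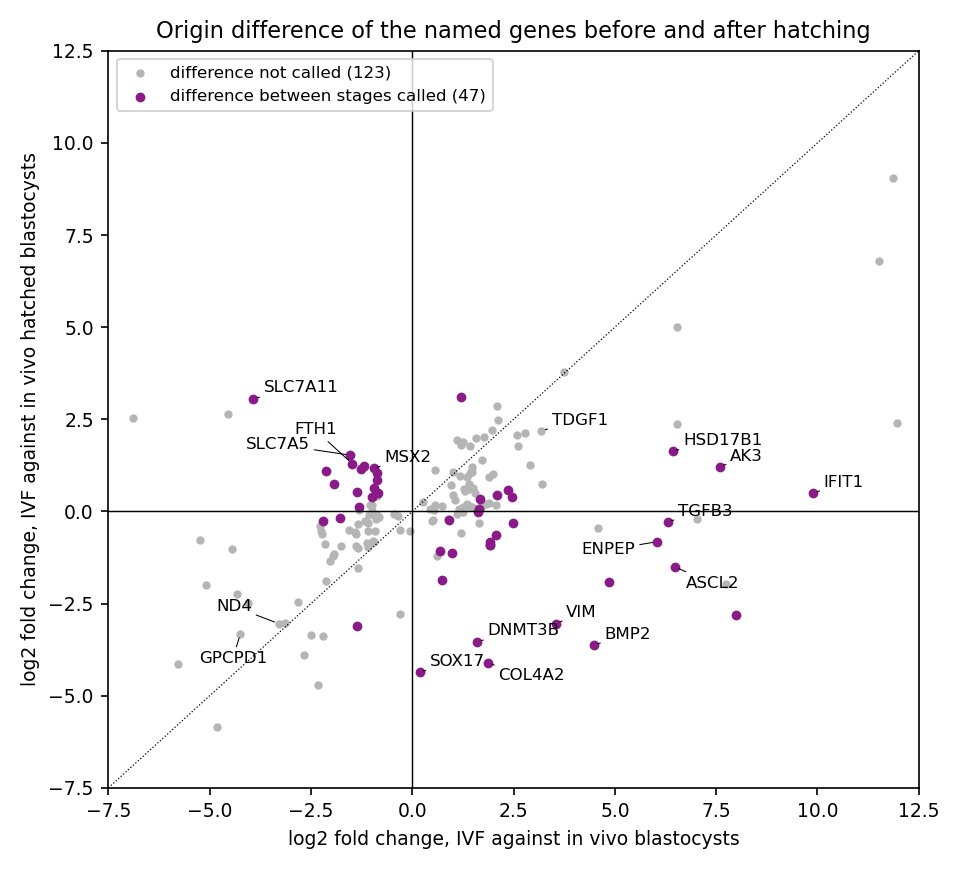
Log2 fold change of IVF against in vivo embryos at the blastocyst (x axis) and hatched blastocyst stage (y axis) for the 170 genes that qualify to be named. Purple points are the 47 genes whose effects differed between stages, grey points the others, and the dotted line marks equal effects; SLC7A11 and SLC7A5 lie in the upper left and BMP2 and COL4A2 in the lower right. Fitted fold changes of genes without counts in a group depend on edgeR's prior count.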

How the data were processed

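Polyadenylated RNA of pooled pig embryos was sequenced in 13 libraries, of which 5 are blastocysts. The authors deposited 1 gene table on Sscrofa11.1 with whole read counts, not normalised, and FPKM, fragment counts scaled by the authors for gene length and library size. The tools were RSEM, StringTie 1.3.1, HISAT2, Bowtie2 and fastp 0.18.0, per the submitters' processing notes, without their roles; counting rules and strand use are not given in the sources used here. Of 39 value columns 21 (13 of TPM, 8 of FPKM) were not used. Gene positions come from a RefSeq table of the same build (28208 of 28232 genes matched by gene number; the 24 others are mitochondrial rRNA and tRNA genes). Genes that share a symbol (488) were not named.

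The counts were tested with edgeR 4.0.16 in R 4.3.3 (quasi-likelihood test, TMM factors, filterByExpr, Benjamini-Hochberg adjustment over 15528 genes, call at adjusted p under 0.05), fitting the 10 blastocyst and hatched libraries together. Alternatives used DESeq2 1.42.0 and limma 3.58.1, other scalings, filters and libraries. No 2 libraries agreed within counting noise (lowest chi-square over its degrees of freedom 63.4), so none was merged as a repeated deposit; this does not show that libraries of a group are separate biological samples. The script was tested on simulated data. Lower bounds use a floor of 3 counts in each library and intervals cover counting error only. Members, lists and tests were chosen with earlier results of these data known. The named genes are, on each side, the 10 called genes with the largest fold and the 10 with the largest CPM difference (proper symbol, ranges apart, and at least 5 CPM in the higher group for the former), up to 4 called members of each list by smallest p, and 20 lineage, epithelial and stress genes; exceptions are stated beside them, and some genes that the rule takes up are not reported here.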

Additional observations from a re-analysis of the deposited data

Results flagged for a closer look

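The effect of origin differed between blastocysts and hatched blastocysts for 47 of the 170 named genes, by edgeR's test of the difference itself at an adjusted p under 0.05. Over all genes tested the share was 4.71%. Of the 170, 152 were called in blastocysts, and most were picked for that. The blastocyst effect is 1 of the 2 effects compared, so this count and these sizes are not those of an unselected set. Each value is the log2 fold change of IVF against in vivo blastocysts minus that of hatched blastocysts, so a negative value means that IVF lay lower, relative to in vivo, before hatching than after it. The calls of 22 genes held with each of the 10 libraries left out in turn. Among these the difference was negative for SLC7A11 -6.98, SLC7A5 -3.06, FTH1 -2.78, RGN -2.41, MSX2 -2.12, ACADVL -1.93 and TALDO1 -1.74. It was positive for WNT10B 10.8, BMP2 8.11, ASCL2 8.0, ENPEP 6.86, SCNN1B 6.77, VIM 6.59, TGFB3 6.58, AK3 6.38, COL4A2 5.99, DNMT3B 5.13, HSD17B1 4.78, EREG 2.71, PLK1 2.09, FADS1 2.07 and MCM4 1.75. The other 25 genes lost the call without at least 1 library. Of these the difference was negative for IDH2 -3.21, CDKN1C -2.66, TCF7L1 -2.44, SDF2L1 -1.94, ZMAT3 -1.91, TFAP2A -1.89, PSMD11 -1.61, GNAS -1.59, IDH3G -1.42, SDHB -1.38 and IDH3B -1.35, and positive for IFIT1 9.4, SOX17 4.54, NCL 2.83, DUSP6 2.82, TMPRSS2 2.79, HK1 2.72, GATA4 2.58, CLDN6 1.78, BAG3 1.73, ID3 1.64, RPL35A 1.64, CDK1 1.58, LDHA 1.34 and SLC39A1 1.14. Values of genes with a group at 0 counts, such as WNT10B and IFIT1, depend on edgeR's prior count.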

How the results depend on the processing

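Results were recomputed with other normalisations, tests, filters and libraries. The counts of 945 higher and 736 lower genes stayed within 1.5 times under DESeq2's size factors in edgeR, library totals alone, limma-voom, a mean of at least 1 CPM, the 5 blastocyst libraries alone and scaling without mitochondrial and ribosomal protein messages. They became 1651 and 1293 with DESeq2's own test (1679 of the 1681 called genes were shared), 1551 and 1198 with no filter on low counts, and 4 and 3 with the 4-cell libraries in the fit; the cause was not tested. Leaving out single blastocyst libraries gave 208 (without in vivo library 1) to 1055 (without in vivo library 2) higher and 112 to 702 lower genes. Without in vivo library 2 the median log2 fold change of all genes moved to 0.182. With the replicate number as a block, 635 genes were higher and 393 lower, but same-numbered libraries of both origins barely deviated together (r = 0.034 and 0.046 across genes, which are not independent replicates, over 2 pairs), so the numbers were not taken to pair the samples, and that fit drops the unnumbered hatched library. The stage difference, with alternatives chosen after seeing the data, was called for 732 genes, 1855 with no filter, 1 with the 4-cell libraries, 347 with the block, and 333 to 969 with single libraries left out. Signs turned only in genes that were not called. With 1 library left out, ATF4 ranged from -0.28 to 0.24 (0.040 without IVF library 3), GATA2 from -0.018 to 0.63, SOX17 from -0.22 to 0.51 (-0.076 without in vivo library 1) and SOX2 from -1.28 to 0.27 (5.46e-04 without in vivo library 1). No sign of the 152 named called genes turned under any alternative, and 108 of them lost the call without in vivo library 1. A fit without in vivo library 1 or 2 leaves 1 library in that group and assumes it to vary like the others. An exact permutation test has 10 splits of 2 against 3 libraries, too few to reach p = 0.05. The floor of 3 counts limits what can be told of genes below 0.0759 to 0.0838 CPM.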

Other observations

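The rule for named genes also took up genes not yet described. GPNMB, a membrane glycoprotein, had no count in vivo and 18.5, 18.9 and 2.42 CPM after IVF, at least 165-fold higher (adjusted p = 0.0225). COL26A1, a collagen, had 0 and 0.256 CPM in vivo and 6.27, 28.1 and 3.1 after IVF (log2 fold change 6.54 ± 1.64, adjusted p = 0.0287), with IVF library 2 highest. CYP1A1, the detoxifying enzyme that the aryl hydrocarbon receptor induces, was lower at 16.9 and 85.8 CPM in vivo and 0, 1.48 and 5.06 after IVF (log2 fold change -4.56 ± 1.29, adjusted p = 0.0442), with in vivo library 2 far above library 1. LPCAT2, an acyltransferase of membrane lipids, had 19.6 and 3.72 CPM in vivo and 0.0506, 0 and 1.2 after IVF (log2 fold change -4.81 ± 1.3, adjusted p = 0.0372), and VCAN, the matrix proteoglycan versican, 8.94 and 5.1 CPM in vivo and 0.0759, 0 and 0.299 after IVF (log2 fold change -5.79 ± 1.33, adjusted p = 0.0208). NANOGNB, a homeobox gene, had 17 and 4.87 CPM in vivo and 0, 0 and 0.272 after IVF (log2 fold change -6.88 ± 2.0, adjusted p = 0.0489). COL26A1 lost it without in vivo library 1 or IVF library 2 (log2 fold change 5.13 to 5.59, adjusted p = 0.0777 to 0.154). LPCAT2 lost it without in vivo library 1 or IVF library 1 or 2 (log2 fold change -4.28 to -3.16, adjusted p = 0.0791 to 0.245). VCAN lost it without in vivo library 1 or IVF library 1 or 2 (log2 fold change -5.54 to -5.21, adjusted p = 0.0616 to 0.0781). GPNMB lost it without in vivo library 1 or 2 or IVF library 1 or 2 (adjusted p = 0.0508 to 0.118). CYP1A1 lost it without in vivo library 1 or 2 or IVF library 1 or 2 (log2 fold change -5.29 to -2.96, adjusted p = 0.0509 to 0.229). NANOGNB lost it without in vivo library 1 or IVF library 1, 2 or 3 (log2 fold change -11.66 to -5.7, adjusted p = 0.0573 to 0.256).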
